A study of Mus musculus with 6 samples.

Results

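Conventional CD4 T cells are helper T cells without Foxp3, the factor that defines regulatory T cells. They numbered 420 of the 20407 tumour immune cells assigned to a mouse (2.06%), and 8.50% of the 4943 cells with CD3 RNA. Members were chosen from raw counts of unique molecular identifiers (UMIs, each standing for 1 captured molecule). A cell needed at least 500 gene UMIs, at most 10% of them mitochondrial, and a leading mouse hashtag with at least 10 counts and at least 70% of the hashtag counts. It also needed at least 2 UMIs over Cd3e, Cd3d and Cd3g, at least 1 of Cd4, none of Foxp3, Cd8a, Cd8b1 or Trdc, and fewer than 5 over C1qa, C1qb and C1qc, which belong to macrophages. These 11 genes chose the cells and are described here without a test.

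The cells came from subcutaneous YUMM1.7 tumours, a mouse melanoma line, and were profiled by CITE-seq, which counts RNA and tags of bound antibodies in the same cell after sorting for CD45. All mice were female C57BL/6J, aged 8 weeks, and homozygous for a floxed Nr3c1 gene (GRf/f), which encodes the glucocorticoid receptor. The conditions were GRf/f-LysMCre mice given anti-PD-1 (LysM-Cre anti-PD-1), GRf/f mice given anti-PD-1 (floxed anti-PD-1), GRf/f-LysMCre mice given isotype antibody (LysM-Cre isotype) and GRf/f mice given isotype antibody (floxed isotype), with 4 mice each. Cre was driven by the Lyz2 promoter, which is active mainly in myeloid cells, so a genotype difference in these cells compares T cells from tumours with and without Cre in myeloid cells. Mice received 250000 tumour cells, antibody at 12.5 mg/kg for 3 weeks once tumours were palpable, and were killed at day 28. Hashtags marked the 16 mice in 2 pools, with 2 mice of every condition in each pool. The deposited antibody table lists 1 tag sequence for hashtags 8 and 9, which mark the 2 floxed isotype mice of each pool, while the matrices count them separately (1964 and 2061 assigned cells in E5, 3833 and 938 in E6). If they were 1 tag, the floxed isotype mice of a pool could not be told apart, and its part in the per-mouse values was not tested.

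Helper CD4 T cells recognise peptides on MHC class II molecules and act on other cells through cytokines and through CD40 ligand (Cd40lg), which licenses dendritic cells and B cells. They split into type 1 cells that make interferon-gamma, type 2 cells that make interleukins 4, 5 and 13, and others. Regulatory T cells share Cd4 with them and carry Foxp3, a high level of the interleukin-2 receptor alpha chain (Il2ra, CD25) and Helios (Ikzf2). PD-1 (Pdcd1, CD279) is the receptor that the therapeutic antibody blocks.

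Surface proteins were read through a 15-base tag on each antibody. The tags of the 6 antibodies that the results below turn on are shown because each protein value is a count of 1 of them.
CD4: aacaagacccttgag
CD25: accatgagacacagt
CD103: ttcattagcccgctg
CD49d: cgcttggacgcttaa
CD278: actgccatatcccta
CD226: acgcagtatttccga
CD25 is the product of Il2ra (chromosome 2, 11642792 to 11693194, GRCm38.p6). CD103 is the integrin alpha-E chain made from Itgae (chromosome 11, 73090505 to 73147449), which holds T cells in epithelia. CD49d is the integrin alpha-4 chain made from Itga4 (chromosome 2, 79255426 to 79333114), which binds VCAM-1. CD278 is the costimulatory receptor ICOS, and CD226 is an adhesion receptor that promotes activation.

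The antibody counts were not used by the gate and bear on the label. The CD4 antibody had at least 10 counts in 418 of the 420 cells and the CD8a antibody in 2. The median cell had 179 CD4 counts, 11 CD3 counts, 9 TCRbeta counts and 0 CD8a counts, whereas CD8 T cells of the same tumours had a median of 1 CD4 and 61 CD8a counts. Of the defining genes outside the gate, Trac, the T cell receptor alpha constant gene, had a UMI in 88.3% of the cells, Icos in 65.2% and Cd40lg in 26.4%. In 4982 cells with at least 20 C1q UMIs and no CD3 UMI, which should lack these genes, the shares were 2.45%, 1.12% and 0.0602%. The median depth was 4536 gene UMIs in conventional CD4 T cells and 13446 in those C1q-high cells, so the deeper cells had the lower shares. Just inside the limits, 199 members had 1 Cd4 UMI, 16 had 2 CD3 UMIs and 46 had 4 C1q UMIs. Just outside, 573 otherwise similar cells had no Cd4 UMI, 10 had 1 CD3 UMI, 17 had 5 C1q UMIs and 69 had 1 Foxp3 UMI. A cell with Cd4 or Foxp3 RNA that was not captured falls on the wrong side of these limits.

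The 420 cells had 1075 to 60958 gene UMIs each, and 261 came from pool E5 and 159 from pool E6. A mouse had 4 to 86 of them. LysM-Cre anti-PD-1 mice 1 to 4 had 19, 7, 5 and 16 cells, and floxed anti-PD-1 mice had 15, 4, 24 and 6. LysM-Cre isotype mice had 18, 86, 18 and 22 cells, and floxed isotype mice had 62, 50, 53 and 15. Genes and antibodies were compared between conditions over the 12 mice with at least 10 cells, 2 in each anti-PD-1 condition and 4 in each isotype condition, with 57900 to 516356 gene UMIs per mouse. The pools shared 805 barcodes, of which 3 were members. Of the 420 members, 70 had no C1q UMI, and 44 had more than 50 counts of the antibody to CD11b, a myeloid protein. Markers of other cell types were present. The 8 macrophage and monocyte genes outside the gate summed to 1002 to 2326 counts per 1000000 gene UMIs (CPM) in LysM-Cre mice. In floxed mice they summed to 906 to 2924 CPM. For scale, 9 CD4 helper genes such as Cd40lg and Icos summed to 1277 to 3972 CPM over the same mice. The 6 fibroblast genes summed to at most 69.1 CPM except in LysM-Cre isotype mouse 4 (1909 CPM) and floxed isotype mouse 1 (599.7 CPM). The 5 neutrophil genes summed to 2150 CPM in LysM-Cre isotype mouse 2 and to 71.7 to 932 CPM in the others. The part of these markers of other cell types in the results was not tested.

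Nr3c1, the gene floxed in all mice, is read here from the 3′ end of its transcript, and the position of the loxP sites is not given in the sources used here, so its level does not check the deletion. With anti-PD-1, conventional CD4 T cells of LysM-Cre mice 1 and 4 held 136 and 126 CPM of it, and those of floxed mice 1 and 3 held 199 and 216 CPM. With isotype, the levels were 287, 128, 109.6 and 119 CPM for LysM-Cre mice 1 to 4, against 123, 208, 222 and 294 CPM for floxed mice 1 to 4. The ranges of the genotypes overlapped with isotype and not with anti-PD-1, where each genotype had only 2 mice. The share of all genes without overlap there was not counted. The log2 difference, LysM-Cre over floxed, was -0.34 ± 0.31 (SE) with isotype, -0.65 ± 0.50 with anti-PD-1 and -0.49 ± 0.30 over both treatments, and none passed (edgeR adjusted p = 0.9997, 0.917 and 0.809).

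The share of conventional CD4 T cells asks whether either treatment or genotype changed how many helper cells were in the immune infiltrate. Of all assigned cells they made up 1.79 ± 1.24% in LysM-Cre anti-PD-1, 2.17 ± 1.01% in floxed anti-PD-1, 2.10 ± 0.80% in LysM-Cre isotype and 2.14 ± 0.81% in floxed isotype mice (SD, n = 4 each). Mice of every condition overlapped, and the 6 exact two-sided permutation tests over mice gave p from 0.649 to 0.943. Of the CD3-positive cells they made up 9.72 ± 2.87% in LysM-Cre anti-PD-1, 14.98 ± 5.41% in floxed anti-PD-1, 7.37 ± 3.63% in LysM-Cre isotype and 7.46 ± 1.83% in floxed isotype mice.

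Within the CD3-positive cells the 4 floxed anti-PD-1 mice had 14.6, 20, 17.8 and 7.59%, and the 4 floxed isotype mice had 10.2, 6.23, 6.90 and 6.52%. Mouse 4 of the anti-PD-1 group lay inside the isotype range and the other 3 above it (exact permutation p = 0.0571, adjusted 0.229 over the 24 share tests, and unadjusted 0.0556 with mice relabelled within pool). Over both genotypes, with mice relabelled within genotype, the mean was 12.4% with anti-PD-1 and 7.42% with isotype (exact permutation p = 0.0241, adjusted 0.229, and unadjusted 0.0247 within pool). The total of CD3-positive cells moved too: they were 17.6 ± 9.11% of assigned cells in LysM-Cre anti-PD-1, 14.5 ± 3.74% in floxed anti-PD-1, 29.5 ± 7.21% in LysM-Cre isotype and 28.6 ± 8.21% in floxed isotype mice (SD, n = 4 each). The stricter gate with no C1q UMI kept 70 cells over all mice. Under it the difference over both genotypes was 0.791 percentage points (exact permutation p = 0.334). Among cells with no Il2ra or Ikzf2 UMI the difference was 2.86 (exact permutation p = 0.1004).

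Foxp3-positive cells, counted as a share of conventional plus Foxp3-positive CD4 T cells, had their lowest mean in floxed anti-PD-1 mice. LysM-Cre anti-PD-1 mice had 50, 53.3, 37.5 and 38.5%, and floxed anti-PD-1 mice had 16.7, 20, 14.3 and 33.3%. The genotypes did not overlap with anti-PD-1, at the smallest p that 4 against 4 mice allow (exact permutation p = 0.029, adjusted 0.229). Relabelled within pool, where 36 arrangements allow no lower value, p was 0.0556 (exact permutation, unadjusted). LysM-Cre isotype mice had 33.8 to 54.2% and floxed isotype mice 30.3 to 51.0%, and these overlapped (exact p = 0.771). The floxed anti-PD-1 values rest on 5 to 28 CD4 T cells per mouse, and no share passed after adjustment over the 24 tests.

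**Figure D1:**
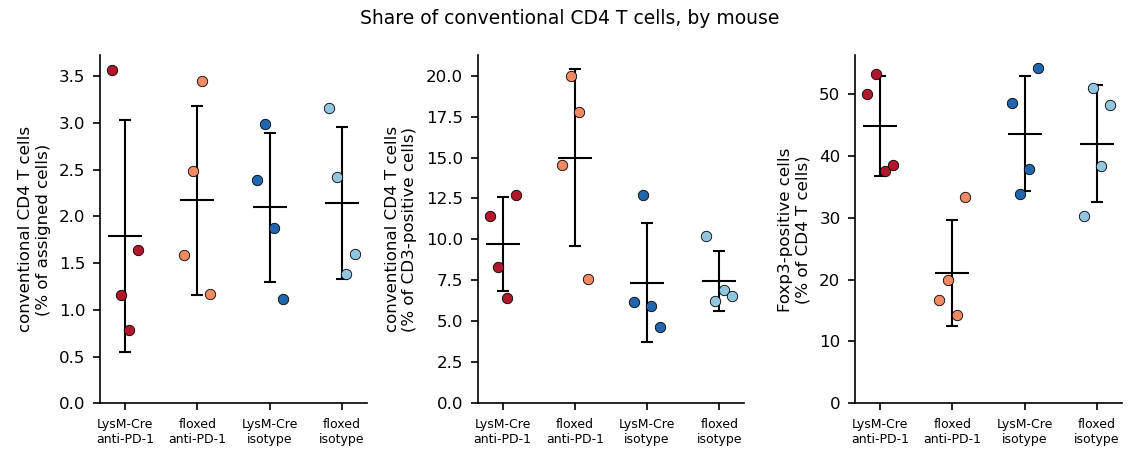
Percent of assigned cells (left) and of CD3-positive cells (middle) that were conventional CD4 T cells, and percent of CD4 T cells that were Foxp3-positive (right); points are mice, dashes means and bars SD over 4 mice per condition. All floxed anti-PD-1 mice but mouse 4 lie above the floxed isotype mice in the middle panel, and all 4 lie below the LysM-Cre anti-PD-1 mice in the right panel.

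The members were not alike, and their RNA is described next without a test, since the clusters were made from the same genes. Clustering gave 8 groups, of which the first 4 held 104, 80, 78 and 63 cells. Cluster 1 led with Tmem176b, Tmem176a and Ckb and with Ly6c2, an activation and memory marker of T cells (577 CPM inside, 225 CPM in the other members). Cluster 2 led with interferon-induced genes, among them Ifit3 (1121 CPM inside, 87 CPM in the others), Rsad2 and Ifit1. Cluster 3 led with Penk, the precursor of enkephalin peptides (1257 and 42 CPM), Ifng (651 and 56 CPM), the chemokine Ccl1 and the inhibitory receptor Lag3. Cluster 4 led with Ramp3, a partner of the receptors for calcitonin-family peptides (558 and 83 CPM), the homing receptor Cxcr4 and the heat-shock genes Hspa1a and Hspa1b.

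Of the 4 smaller clusters, cluster 5 (38 cells) led with Klrg1 (383 and 4 CPM), Itgae (306 and 14 CPM), Ikzf2 (1715 and 131 CPM), Gzmb (1921 and 174 CPM) and Il2ra (595 and 66 CPM), genes that regulatory T cells carry, although no cell in it had a Foxp3 UMI. Cluster 6 (21 cells) led with genes that include the naive and central memory T cell factors Lef1 (626 and 53 CPM) and Tcf7 (756 and 81 CPM). Cluster 7 (19 cells) held proliferation genes such as Pclaf (687 and 7 CPM) and Birc5 (423 and 4 CPM), next to Mgp (5795 and 113 CPM), a matrix gene of stromal cells. Cluster 8 (17 cells) led with Saa3, S100a8 (2823 and 67 CPM) and Chil3, genes of monocytes and neutrophils. Its median cell had 519 CD11b antibody counts against 12 in all members, and 12589 gene UMIs, so its leading genes go against the label of the gate.

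**Figure D2:**
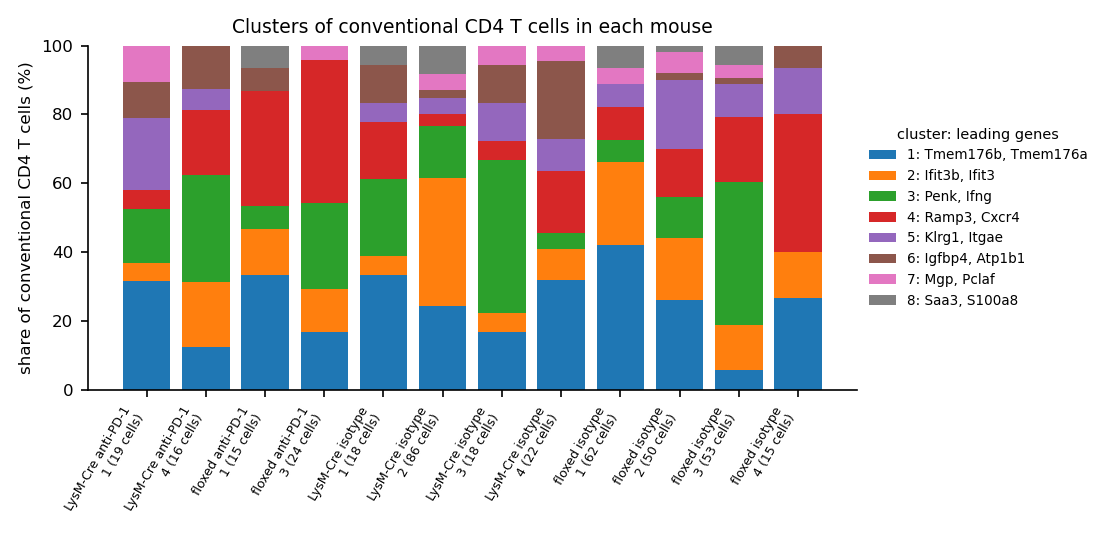
Percent of each mouse's conventional CD4 T cells in the 8 clusters (stacked bars, 12 mice with at least 10 cells, cell numbers in parentheses); the legend gives the 2 leading genes of each cluster. Every mouse mixed several clusters, and cluster 5 is at 0 in both floxed anti-PD-1 mice and between 4.65 and 21.1% in the other 10.

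Each cytokine RNA came from a minority of the cells. Ifng had a UMI in 93 cells (22.1%, against 1.08% of the C1q-high cells) of 15 mice, with 474 UMIs in all, of which the leading cell held 79. Cd40lg had 208 UMIs in 111 cells. Gzmb, a granule protease, had 721 UMIs in 96 cells (22.9%, against 3.57%), and 22 cells had both Ifng and Gzmb. Il2 had a UMI in 16 cells (3.81%, against 0.682%), and Il21, a cytokine of follicular helper cells, in 8. Tnf was in 23.1% of members and in 25.5% of the deeper C1q-high cells, a cell type that can make Tnf itself, so no background is given for it.

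Type 2 cytokines were rarer and concentrated. Il4, Il5 or Il13 had a UMI in 11 cells of 7 mice, and 5 of these cells had 2 or more of the 3 genes. Il13 had 252 UMIs in 7 cells, of which 244 were in 5 floxed isotype cells and 83 in a single cell. Il5 had 31 UMIs in 3 cells of 1 mouse. Gata3, the factor of type 2 cells and of T cells in general, was in 44.8% of members (0.582% of the C1q-high cells). Il17a had UMIs in 1 cell. Tcf7, a factor of memory and stem-like T cells, was in 134 cells and Pdcd1 in 125, with both in 30.

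Some members carried the surface of regulatory T cells. The CD25 antibody had a median of 1 count in conventional CD4 T cells and of 31 in the 275 Foxp3-positive CD4 T cells. At least 10 CD25 counts were found on 55 of the 420 members (13.1%) and on 217 of the 275 Foxp3-positive cells (78.9%). Of the 55, 53 had an Il2ra or Ikzf2 UMI, and 34 also had at least 10 CD103 counts. An Il2ra or Ikzf2 UMI was present in 170 members (40.5%) and in 273 of the 275 Foxp3-positive cells. By condition, at least 10 CD25 counts were found on 8 of 47 cells in LysM-Cre anti-PD-1, 1 of 49 in floxed anti-PD-1, 17 of 144 in LysM-Cre isotype and 29 of 180 in floxed isotype mice. Foxp3-positive cells whose Foxp3 RNA was not captured and helper cells with CD25 cannot be told apart here.

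Conventional CD4 T cells were then compared with the Foxp3-positive CD4 T cells of the same mice, in 10 mice with at least 10 cells of both. Of 2226 genes, 197 (8.85%) were higher and 177 (7.95%) lower at an edgeR adjusted p of 0.05 with the mouse as a block. Of 74 antibodies, 11 (14.9%) were higher and 10 (13.5%) lower. The median depth was 4536 gene UMIs and 1252.5 antibody counts per conventional cell, against 5345 and 1908 per Foxp3-positive cell. Cells of the CD25-high kind described above are in the conventional group, and their part in these differences was not tested.

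The genes that rose most firmly in conventional cells were a chemokine receptor, a survival gene and integrins. Cxcr6, the receptor for CXCL16 that places T cells in tumours, had a lowest, median and highest level of 86.4, 365 and 533 CPM in conventional cells and 9.14, 32.3 and 91.9 CPM in Foxp3-positive cells (log2 3.19 ± 0.26 SE, adjusted p = 2.37e-07, higher in 10 of 10 mice). Bcl2, which blocks apoptosis, had 165, 204 and 454 CPM in conventional cells and 6.02, 18.6 and 91.9 CPM in Foxp3-positive cells (3.35 ± 0.29, adjusted p = 2.39e-07, 10 of 10). For Bcl2 the 2 groups did not overlap, and for Cxcr6 they met at a single conventional sample, floxed isotype mouse 4. Itgb1, the integrin beta-1 chain (log2 1.73 ± 0.19, adjusted p = 1.75e-06), Itgal, the alpha chain of LFA-1 (1.12 ± 0.14, 1.11e-05), Ms4a4b, Emb and Arap2 were also higher in 10 of 10 mice. A further 7 of the 15 most firmly higher genes encoded ribosomal proteins, with log2 differences from 0.57 to 0.76.

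Of 11 tested T cell receptor signalling genes, 6 rose in conventional cells and none fell, beside 8.85% of all genes that rose and 7.95% that fell. The median log2 of the list was 0.69, against -0.01 over all genes tested. Those that rose included Prkcq (0.96 ± 0.25, adjusted p = 0.0109) and Zap70 (0.69 ± 0.20, 0.0203), kinases that relay the receptor signal. Of 7 tested type 1 genes, Stat4 (1.30 ± 0.28, adjusted p = 0.00251) and the interleukin-18 receptor gene Il18r1 (0.96 ± 0.19, 0.000901) rose and Hopx fell (-0.56 ± 0.14, 0.00565). Pdcd1 had 12.5, 160 and 352 CPM in conventional cells and 22.5, 33.1 and 101 CPM in Foxp3-positive cells (1.78 ± 0.40, adjusted p = 0.00675, higher in 9 of 10 mice).

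All 7 tested members of the regulatory T cell list other than Foxp3 were lower in conventional cells, beside 7.95% of all genes. Il2ra had 25.04, 87.3 and 229 CPM in conventional cells and 332, 671 and 1054 CPM in Foxp3-positive cells (log2 -2.59 ± 0.25, adjusted p = 6.55e-06). Ikzf2 had 151, 264 and 622 CPM in conventional cells and 924, 1610 and 1866 CPM in Foxp3-positive cells (-2.45 ± 0.18, 3.39e-08). Neither gene overlapped between the groups. Ctla4 (-2.10 ± 0.19), Itgae (-2.52 ± 0.20) and Capg (-1.12 ± 0.14) followed, each lower in 10 of 10 mice. Gzmb was also lower, at 51.8, 171 and 476 CPM in conventional cells and 568.3, 1216 and 2329 CPM in Foxp3-positive cells (-2.39 ± 0.39, adjusted p = 0.00172).

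Of 7 tested costimulatory receptors, 5 fell and 1 rose, beside 7.95% of all genes that fell and 8.85% that rose. Cd82, a tetraspanin gene, was the receptor that rose (0.41 ± 0.13, adjusted p = 0.0363). Icos, of the CD28 family (-1.25 ± 0.14), and the TNF receptor family members Tnfrsf18, which encodes GITR (-1.08 ± 0.16), Tnfrsf4, which encodes OX40 (-1.40 ± 0.23), Tnfrsf9, which encodes 4-1BB (-1.79 ± 0.35), and Cd27 (-1.56 ± 0.23) had adjusted p-values of at most 0.00450. Of 20 tested interferon response genes, 6 fell and none rose, beside 7.95% of all genes that fell. Their median log2 was -0.31, against -0.01 over all genes tested. Arl5a, a small GTPase gene, was the most firmly lower gene (-2.62 ± 0.17, adjusted p = 1.75e-09).

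**Figure D3:**
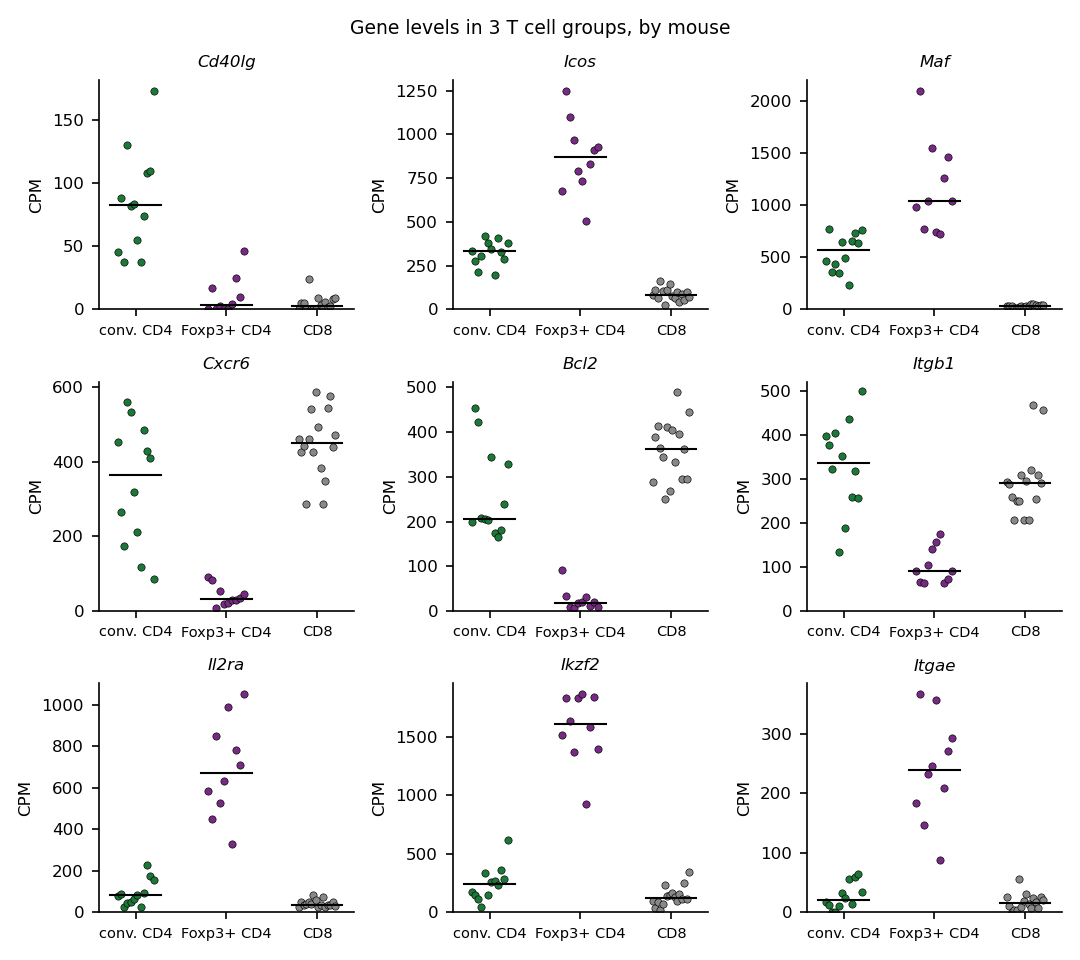
Levels of 9 genes in CPM of summed gene UMIs, for conventional CD4 T cells (12 mice), Foxp3-positive CD4 T cells (10 mice) and CD8 T cells (16 mice), 1 point per mouse with at least 10 cells of the group and a bar at the median. The median of Cd40lg is highest in the conventional cells, Cxcr6, Bcl2 and Itgb1 are low in the Foxp3-positive cells, and Il2ra, Ikzf2 and Itgae are high in them.

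Proteins on the surface differed in the same mice. CD25 had a lowest, median and highest level of 2485, 3790 and 16532 antibody CPM, the counts per 1000000 antibody counts, in conventional cells and 15573, 22167 and 28982 in Foxp3-positive cells (log2 -2.46 ± 0.23, adjusted p = 8.74e-07, lower in 10 of 10 mice). Floxed isotype mouse 2 was the conventional sample that reached the Foxp3-positive range. CD103 (-2.56 ± 0.26), the integrin chain ITGB7 that pairs with it (-2.35 ± 0.23) and CD278 (-1.40 ± 0.21) were lower in 10 of 10 mice. Higher in 10 of 10 mice were CD226 (1.83 ± 0.19, adjusted p = 9.16e-07) and CD11a, the product of Itgal (1.01 ± 0.11, 2.06e-06). CD4, the product of a gate gene and 1 of the 11, had a median of 138655 antibody CPM in conventional and 70845 in Foxp3-positive cells, given without a test. TCRbeta (0.66 ± 0.21, adjusted p = 0.0220), CD279 (1.18 ± 0.31, 0.00764) and CD49d (0.91 ± 0.29, 0.0242) were higher in antibody CPM in 9 of 10. In raw counts, the median conventional and Foxp3-positive cell had 179 and 133 for CD4, 97.5 and 58 for CD11a and 3 and 1 for CD226. For TCRbeta the median was 9 in both groups, and for CD279 it was 1 in both. The part of the unlike antibody totals in these differences was not tested. For Il2ra, Itgae, Itgal, Icos and Pdcd1 the RNA and the antibody CPM of its product differed in the same direction.

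**Figure D4:**
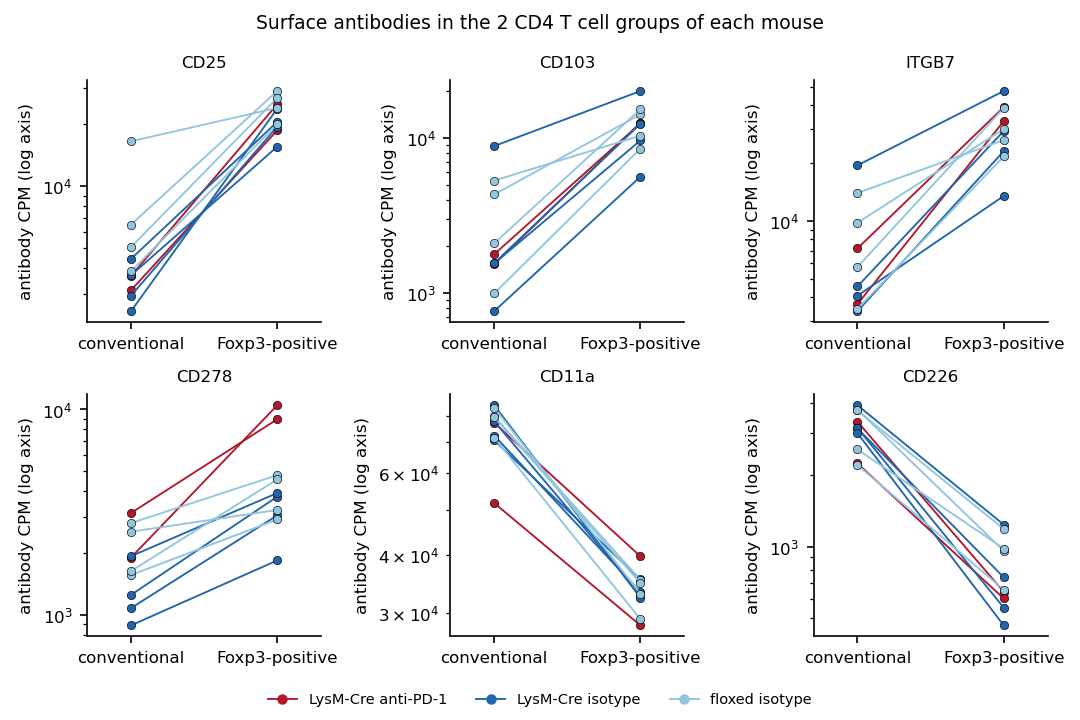
Antibody CPM (log axes) of 6 antibodies in the conventional (left) and Foxp3-positive (right) CD4 T cells of the same mouse, 1 line per mouse for 10 mice, coloured by condition. CD25, CD103, ITGB7 and CD278 are lower and CD11a and CD226 higher in the conventional cells of every mouse shown.

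CD8 T cells, the killer lineage, gave the second comparison, over 12 mice. Of 4311 genes, 336 (7.79%) were higher and 321 (7.45%) lower in conventional CD4 T cells. Of 84 antibodies, 12 (14.3%) were higher and 27 (32.1%) lower. The median depth was 4536 gene UMIs and 1252.5 antibody counts per conventional cell, against 6101 and 861 per CD8 cell. The CD4, CD8a and CD3 antibodies bind products of genes in the gate and are described without a test: CD4 and CD3 are 2 of the 12 higher and CD8a is 1 of the 27 lower.

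All 7 tested genes of the CD4 helper list were higher than in CD8 cells, beside 7.79% of all genes. Cd40lg had a lowest, median and highest level of 37.3, 82.6 and 173 CPM in conventional CD4 T cells and 0, 2.93 and 24.4 CPM in CD8 T cells (log2 4.15 ± 0.32, adjusted p = 5.96e-09). Maf, a factor that drives interleukin-10 and interleukin-21, had 238, 566 and 770 CPM in conventional CD4 T cells and 14.3, 34.3 and 54.2 CPM in CD8 T cells (3.83 ± 0.21, 9.10e-09). Ramp3 showed the steepest rise among the named genes, with 36.2, 132 and 379 CPM in conventional CD4 T cells and 0.946, 3.48 and 20.9 CPM in CD8 T cells (4.94 ± 0.23, 1.19e-16). None of the 3 genes overlapped between the groups. Icos (1.94 ± 0.15), Tnfrsf4 (2.98 ± 0.28), Tnfrsf18 (1.33 ± 0.11) and the interleukin-7 receptor gene Il7r (1.07 ± 0.10) were higher in 12 of 12 mice. Genes of regulatory T cells moved with them: 6 of 7 tested members of that list were higher than in CD8 cells (median 0.90), among them Ctla4 (1.42 ± 0.15), Il2ra (1.18 ± 0.28) and Ikzf2 (0.77 ± 0.18). Icos, Maf, Tnfrsf4 and Tnfrsf18 were lower than in Foxp3-positive cells (log2 -0.92 ± 0.14 for Maf), and the part of the CD25-high members in the difference from CD8 cells was not tested.

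The factors Rora (1.83 ± 0.12, adjusted p = 2.76e-13) and Gata3 (1.47 ± 0.18, 1.78e-06) were higher in conventional CD4 T cells, and of the other 18 genes in the type 2 and type 17 lists none was frequent enough to test. Of 11 tested type 1 genes, 1 rose (Il18r1, 0.66 ± 0.13) and 5 fell: Tbx21, the type 1 master factor (-0.91 ± 0.20, adjusted p = 0.00107), Ifng (-1.35 ± 0.41, 0.0448), Ccl5, Nkg7 and Ly6c2. Cytotoxic genes were lower, with 8 of 9 tested members falling, beside 7.45% of all genes that fell and 7.79% that rose. Prf1, the pore-forming perforin, had 0, 17.3 and 117 CPM in conventional CD4 T cells and 68.9, 217 and 372 CPM in CD8 T cells (-3.03 ± 0.31, adjusted p = 1.11e-05). Gzmb had 0, 120.2 and 476 CPM in conventional CD4 T cells and 182, 725 and 1116 CPM in CD8 T cells (-1.69 ± 0.36, 0.00771). The killer-lectin gene Klre1 (-4.45 ± 0.23) and Cd160 (-5.19 ± 0.32), receptors of natural killer and CD8 cells, were near 0 in the conventional cells.

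Glucocorticoid response genes stood higher in conventional CD4 than in CD8 T cells. Of 15 tested, 8 rose and none fell, beside 7.79% of all genes that rose, with a median log2 of 0.73 against 0.01 over all genes tested. Against Foxp3-positive cells none of 9 tested rose and 4 fell (median -0.40). Nr3c1 itself had 109.6, 167 and 294 CPM in conventional CD4 T cells and 48.7, 80.4 and 126 CPM in CD8 T cells (1.04 ± 0.13, adjusted p = 7.37e-07, higher in 12 of 12 mice), and the groups overlapped between 109.6 and 126 CPM. Fkbp5, a cochaperone of the receptor (1.01 ± 0.16, 3.13e-05), Ddit4 (1.20 ± 0.17, 1.10e-05), Per1 (0.92 ± 0.23, 0.00523), Dusp1 (0.80 ± 0.16) and Zfp36 (0.92 ± 0.14) were among the 8. Other members of the list, such as Il7r and Nfkbia, also belong to lists above.

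On the surface, CD278 (log2 2.34 ± 0.24, adjusted p = 2.12e-06), CD5 (2.13 ± 0.11), TCRbeta (0.85 ± 0.11) and the interleukin-7 receptor CD127 (0.85 ± 0.14) were higher than on CD8 T cells, and CD25 was higher by 1.30 ± 0.37 (adjusted p = 0.00864). Ly6C (-0.85 ± 0.10), CD226 (-0.71 ± 0.12) and CD11a (-0.61 ± 0.08) were lower. Several antibodies to myeloid proteins were lower too, such as SiglecF (-1.66 ± 0.33), CD169 (-1.28 ± 0.29), F480 (-0.66 ± 0.18) and CD64 (-0.50 ± 0.16), whereas CD11b and CD14 did not pass. CD43 was called higher (0.31 ± 0.07, edgeR adjusted p = 0.00341), although its antibody CPM was lower in 10 of 12 mice. The part of background binding and of scaling in these calls was not tested. In the CD8 cells of floxed anti-PD-1 mouse 1 the ITGB7 antibody stood at 827540 antibody CPM, against a median of 8027 over the 12 mice, which lowers the CPM of all other antibodies there. Without that mouse, 30 of the 39 antibody differences passed. Of the 39, 24 passed without floxed isotype mouse 3, 25 with RLE size factors, 27 with DESeq2 and 19 with at least 20 cells per mouse, and all 39 kept their sign in each of these. Of the 21 differences from Foxp3-positive cells, 14 passed with at least 20 cells per mouse and 17 to 21 when 1 mouse was left out.

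Anti-PD-1 against isotype was tested next, within each genotype and over both. In floxed mice, 3 of 67 surface antibodies passed on conventional CD4 T cells: CD25 and CD103 were lower (2.99%) and CD49d was higher (1.49%). None of 67 passed in LysM-Cre mice by edgeR or DESeq2, or over both genotypes by edgeR (unadjusted p under 0.05 for 1 antibody in LysM-Cre mice and 7 over both, where DESeq2 called 3). For CD25, floxed anti-PD-1 mice 1 and 3 had 1044 and 575 antibody CPM, from 17 and 18 counts, and floxed isotype mice had 3874, 16532, 6528 and 5076 antibody CPM. Both anti-PD-1 mice lay below every isotype mouse (log2 -3.22 ± 0.59 SE, edgeR adjusted p = 0.0134).

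CD103 had 61.4 and 159.6 antibody CPM in floxed anti-PD-1 mice, from 1 and 5 counts, and 990, 5302, 4317 and 2087 in floxed isotype mice. Again both anti-PD-1 mice were below all isotype mice (log2 -4.74 ± 1.15, adjusted p = 0.0393). CD49d had 3623 and 2969 antibody CPM in floxed anti-PD-1 mice and 1352, 1087, 1112 and 677 in floxed isotype mice, with both anti-PD-1 mice above all isotype mice (1.73 ± 0.35, adjusted p = 0.0139). In floxed anti-PD-1 mice 1 and 3 the leading cell held 18 of 59 and 15 of 93 CD49d counts, and the first of these cells had 500 CD11b counts. The median cell of these 2 mice had 1 and 2.5 CD49d counts, against 0 to 1 in floxed isotype mice. At least 10 counts were found on 3 cells of each of the 2 mice. The C1q-high cells had a median of 5 CD49d counts, against 1 in all members, and the part of such cells was not tested.

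In LysM-Cre mice the same antibodies did not pass. CD25 had 3135 and 3681 antibody CPM in LysM-Cre anti-PD-1 and 2953, 3706, 2485 and 4450 in LysM-Cre isotype mice (log2 0.06 ± 0.49, adjusted p = 0.985). CD103 had 1774 and 1530 antibody CPM in LysM-Cre anti-PD-1 and 761, 1552, 1548 and 8865 in LysM-Cre isotype mice (-0.50 ± 0.86, adjusted p = 0.956), and CD49d differed by 0.33 ± 0.36 (0.956). The treatment effect of the genotypes differed, LysM-Cre minus floxed, by 3.28 ± 0.73 for CD25, 4.24 ± 1.39 for CD103 and -1.40 ± 0.52 for CD49d. None of these interactions passed (adjusted p = 0.0605, 0.183 and 0.274), so the genotypes are not shown to differ. By edgeR, 0 of 2706 genes and 0 of 67 antibodies passed for the interaction (unadjusted p under 0.05 in 100 genes and 7 antibodies, and DESeq2 called 0 genes and 4 antibodies).

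**Figure D5:**
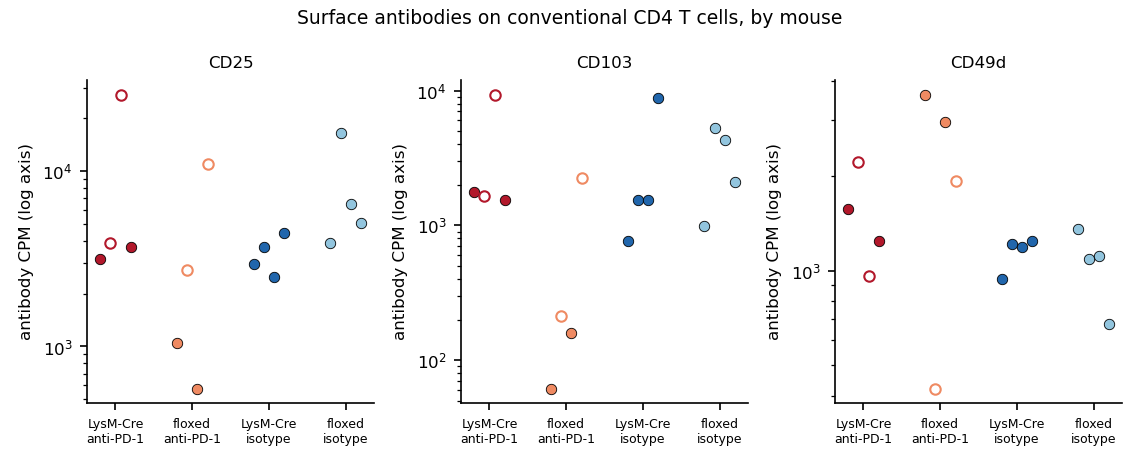
Antibody CPM (log axes) of CD25, CD103 and CD49d on conventional CD4 T cells, 1 point per mouse, by condition; filled points are the 12 mice in the test and open points are mice with 4 to 7 cells. The filled floxed anti-PD-1 points are lowest for CD25 and CD103 and highest for CD49d, and the open point of floxed anti-PD-1 mouse 2 lies below the mice of the other conditions for CD103 (211 antibody CPM) and CD49d (422 antibody CPM), while that of mouse 4 lies among them.

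These calls rest on few cells. The CD25-high cells moved with the CD25 and CD103 differences: neither floxed anti-PD-1 mouse in the test had a cell with at least 10 counts of either antibody, while floxed isotype mice 1 to 4 had 6, 13, 8 and 2 cells with at least 10 CD25 counts. Over the 365 members with under 10 CD25 counts, an alternative chosen after seeing the data, the differences were -0.47 for CD25 (edgeR adjusted p = 0.967), -2.80 for CD103 (0.810) and 1.48 for CD49d (0.120). This gate removes cells by the CD25 count itself, and none from either floxed anti-PD-1 mouse in the test. Its smaller CD25 difference was thus set by the gate and is no test. Of the 55 cells removed, 34 also had at least 10 CD103 counts, so the CD103 value is affected too. With mice of at least 5 cells, floxed anti-PD-1 mouse 4 entered with 108 CD25 counts, 99 of them on 1 of its 6 cells. CD25 then differed by -1.31 (adjusted p = 0.565) and CD103 by -2.75 (0.276), whereas CD49d still passed (1.504, 0.0309). Without floxed anti-PD-1 mouse 1, the adjusted p-values of CD25, CD103 and CD49d were 0.146, 0.287 and 0.146, and without mouse 3 all 3 were 0.213, with unchanged signs. CD103 also missed the threshold with a hashtag purity of 90% (0.129), with at most 50 CD11b counts per cell (0.114), without LysM-Cre isotype mouse 2 (0.0599) and without floxed isotype mouse 3 (0.0760). The lone mouse left is then assumed to vary like the other groups. The RNA of 11 regulatory T cell genes other than Foxp3 summed to 1528 and 1391 CPM in floxed anti-PD-1 and 1693 to 2867 CPM in floxed isotype mice, and to 1394 and 1401 CPM in LysM-Cre mice given anti-PD-1 and 1220.5 to 1903 CPM in LysM-Cre isotype mice.

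The blocked receptor was read both as RNA and as protein. Pdcd1 stood at 163 and 215 CPM in LysM-Cre mice given anti-PD-1, 74.5 and 129.6 CPM in floxed anti-PD-1, 12.5 to 352 CPM in LysM-Cre isotype and 44.1 to 254 CPM in floxed isotype mice. CD279 antibody stood at 1196 and 1696 antibody CPM in LysM-Cre anti-PD-1, 1290 and 1021 in floxed anti-PD-1, 783 to 2237 in LysM-Cre isotype and 681 to 2897 in floxed isotype mice, so the anti-PD-1 mice lay inside the isotype range of their genotype for both. The median conventional cell had 1 CD279 count. The therapeutic antibody binds the same receptor, and whether it changes the CD279 counts of treated mice was not tested. The CD279 antibody was named after its values were seen.

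No gene passed for anti-PD-1 against isotype. Among 2706 genes, 0 (0%) were called by edgeR in floxed mice, in LysM-Cre mice or over both genotypes, and 0 by DESeq2. At an unadjusted p of 0.05, 112 passed in floxed mice, 115 in LysM-Cre mice and 143 over both. The smallest p in floxed mice belonged to Ikzf2 and Il2ra, genes of the CD25-high cells. Ikzf2 had 112 and 43.2 CPM in floxed anti-PD-1 and 232, 365, 287 and 622 CPM in floxed isotype mice (log2 -2.23 ± 0.52, adjusted p = 0.998). Il2ra had 24.8 and 43.2 CPM in floxed anti-PD-1 and 94.1, 229, 174 and 155 CPM in floxed isotype mice (-2.19 ± 0.55, 0.998). The anti-PD-1 mice were below all isotype mice for both genes, without passing over all genes.

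No member of any list passed with anti-PD-1. In floxed mice, 7 of 7 tested regulatory T cell genes had a negative fitted difference (median log2 -0.29), 7 of 8 naive and central memory genes a positive one (0.99) and 7 of 9 type 1 genes a positive one (0.51), beside 1379 positive and 1327 negative of all 2706 (median 0.01). Of 21 interferon response genes, 17 were negative in LysM-Cre mice (median -0.55, beside 1380 of all 2706 and a median of -0.01) and 16 in floxed mice (median -0.19).

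The genotype comparison asks whether Cre in myeloid cells went with a different state of the helper cells. By edgeR 0 of 2706 genes (0%) and 0 of 67 antibodies passed for LysM-Cre against floxed with isotype, with anti-PD-1 or over both treatments. DESeq2 called 1 gene with isotype and 3 over both, and 4 antibodies with anti-PD-1 and 1 over both. Unadjusted p under 0.05 was reached by 101, 145 and 164 genes, and by 2, 6 and 4 antibodies, in these 3 comparisons.

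Of the 5 genes with the smallest p over both treatments, Dnaja1 belongs to the heat-shock and Junb and Fosb to the immediate-early response. The other 2 were Srsf1, a splicing factor gene (log2 1.34 ± 0.32), and Klf6, a zinc-finger factor gene (-0.81 ± 0.20), both with an edgeR adjusted p of 0.404. Dnaja1, a cochaperone of Hsp70, had 226 and 316 CPM in LysM-Cre mice given anti-PD-1 and 460 and 864 CPM in floxed anti-PD-1 mice. It had 297, 312, 266 and 376 CPM in LysM-Cre isotype and 412, 511, 618 and 622 CPM in floxed isotype mice. All 6 LysM-Cre mice were below all 6 floxed mice (log2 -0.98 ± 0.17 SE, edgeR adjusted p = 0.0837, DESeq2 adjusted p = 0.00173). Junb, a subunit of the AP-1 factor, had 407 and 1048 CPM in LysM-Cre mice given anti-PD-1 and 1391 and 2125 CPM in floxed anti-PD-1 mice. It had 871, 775, 916 and 845 CPM in LysM-Cre isotype and 1029, 698, 1558 and 1347 CPM in floxed isotype mice, so floxed isotype mouse 2 lay below all LysM-Cre isotype mice. Junb differed by -0.84 ± 0.18 (edgeR adjusted p = 0.268, DESeq2 0.0188) and Fosb, another, by -0.87 ± 0.22 (0.404 and 0.382). Dnaja1 passed by edgeR among the members with under 10 CD25 counts (adjusted p = 0.0352), and without a filter on low counts (0.00294), and in none of the settings that left out 1 mouse (0.0869 to 0.842).

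Dnaja1 and Fosb sit in a list of 12 dissociation stress genes, which are known to rise when tissue is digested. Of its members 11 had a negative fitted difference over both treatments, with a median log2 of -0.91, against 1349 of all 2706 genes and a median of 0.00. Summed, the list had 2172 and 3762 CPM in LysM-Cre mice given anti-PD-1 and 4558 and 6401 CPM in floxed anti-PD-1 mice. It had 3166, 3420.1, 3571 and 4650.5 CPM in LysM-Cre isotype and 4604, 4337, 7234 and 6477 CPM in floxed isotype mice. The genotypes overlapped with isotype, where LysM-Cre isotype mouse 4 exceeded floxed isotype mice 1 and 2, and did not with anti-PD-1. Over the same contrast all 4 tested macrophage and monocyte genes were negative (median -0.92) and all 4 tested fibroblast genes positive (median 1.36), and their part was not tested. No member passed, and handling of the tumours was not recorded per mouse, so its part in the difference was not tested. Of 8 tested cell cycle genes all had a positive fitted difference (median 0.71), and of 12 tested glucocorticoid response genes 6 were positive and 6 negative (median -0.06).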

How the data were processed

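Per the submitters' processing notes, reads were mapped to mm10 with Cell Ranger 3.0.1, while the matrix header names 6.1.2. The authors deposited raw counts of UMIs for 32285 genes, 88 antibodies and 8 hashtags in each of 2 pools, and nothing was normalized before deposit, per the file headers and the whole-number values. Cells were assigned and gated as described above, and no doublet caller was run. Counts were summed per mouse. A sum of 10 or more cells entered edgeR 4.0.16 (quasi-likelihood test, default low-count filter, TMM, pool as a term, robust; R 4.3.3) with Benjamini-Hochberg adjustment at 0.05 over all features tested, and DESeq2 1.42.0 as an alternative. Antibodies were fitted likewise if they had at least 100 counts in all. Comparisons with other T cells had the mouse as a block. For shares, mice were relabelled exhaustively in two-sided exact permutation tests (numpy 2.4.6). CPM divides a count by the group's gene or antibody total. Clusters came from 2000 variable genes, 20 components and 15 neighbours at a resolution of 0.6 (leidenalg 0.10.2 within scanpy 1.11.5).

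Genes were named by rule: adjusted p under 0.05, a mean of at least 10 CPM and the fitted sign in most mice, by smallest p, plus Nr3c1 and members of lists; some items are not reported here. Members and lists were chosen with earlier results of these data known. P-values measure the spread between mice, each sampled once, and intervals of counts cover counting error only. The code was tested on simulated counts. Alternatives changed the tool, scaling, filter, pool term, cell minimum, gate limits and the mice included.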

Additional observations from a re-analysis of the deposited data

Results flagged for a closer look

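In 30 groups of 4 mice, a mouse was taken as standing apart when its gap to the nearest other mouse filled most of the group's range, by Dixon's 95% criterion, which chance meets in about 1 in 20 groups. It was met 3 times. Conventional CD4 T cells made up 10.18% of the CD3-positive cells in floxed isotype mouse 1, against 6.234 to 6.901% in the other floxed isotype mice. The CD103 antibody stood at 8865 antibody CPM on the conventional CD4 T cells of LysM-Cre isotype mouse 4, against 760.6 to 1552 in the other LysM-Cre isotype mice, and 7 of its 22 cells had at least 10 CD103 counts. Nr3c1 stood at 286.9 CPM in LysM-Cre isotype mouse 1, against 109.6 to 127.8 CPM in the other LysM-Cre isotype mice.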

How the results depend on the processing

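With 4 to 86 cells per mouse and 2 mice per anti-PD-1 condition, small differences were not detectable. Below, A is anti-PD-1 over isotype and G is LysM-Cre over floxed, and the causes of the changes were not tested. Alternatives with at most 20000 gene UMIs, without barcodes found in both pools, with at most 50 CD11b counts or with under 10 CD25 counts were chosen after seeing the data. The gate with no C1q UMI kept 70 cells, left too few mice for a fit of genes or antibodies and was run for shares only.

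Without a filter on low counts, edgeR called 8 genes for A in floxed, 1 for A in LysM-Cre, 4 for A over both genotypes, 11 for G with isotype, 4 for G with anti-PD-1 and 10 for G over both treatments, where the filtered test called none. DESeq2 called 1 gene for G with isotype and 3 over both treatments. With under 10 CD25 counts, 1 gene passed for G with anti-PD-1 and 1 over both treatments, where 1 also passed with at most 50 CD11b counts. Against Foxp3-positive cells, 583 genes passed without a filter and 242 with at least 20 cells per mouse, and against CD8 cells 1232 genes passed without a filter and 20 antibodies with at least 20 cells. The 30 named genes of each of these comparisons kept their sign and passed in every alternative that was fitted.

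For A in floxed mice, 5 antibodies passed by DESeq2, 1 with at least 5 cells per mouse, and 0 with at least 20 cells, with no Il2ra or Ikzf2 UMI, or with under 10 CD25 counts (3 in the test as reported). DESeq2 called 3 antibodies for A over both genotypes, 4 for G with anti-PD-1, 1 for G over both treatments and 4 for the interaction. At least 5 cells gave 1 for A over both genotypes, and the interaction had 1 without the pool term and 1 with at least 3 CD3 UMIs.

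In LysM-Cre mice, where no treatment difference passed, signs turned. Ikzf2 was 0.037 with at least 5 cells. CD25 was -0.0067 without a filter, -0.085 at 90% purity, -0.25 with no Il2ra or Ikzf2 UMI, -0.0040 without shared barcodes and -0.15 with at most 50 CD11b counts. CD103 was 0.44 with at least 5 cells and 0.13 with under 10 CD25 counts. Over both genotypes CD25 was 0.027 with at least 5 cells.

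The share of assigned cells differed, in percentage points, for A in floxed by -0.00121 with at least 1000 gene UMIs, -0.0803 with no C1q UMI and -0.0522 with at least 3 CD3 UMIs. Among CD3-positive cells A was 2.35 in LysM-Cre and 4.94 over both genotypes. For G with isotype the share of assigned cells differed by 0.0381 at 90% purity, 0.135 with no Il2ra or Ikzf2 UMI, 0.0745 with no C1q UMI, 0.0183 with at most 50 CD11b counts and 0.0464 with under 10 CD25 counts, and the share of CD3-positive cells by 0.165, 0.369, 0.334, 0.104 and 0.161 in the same order. With no C1q UMI, G with anti-PD-1 was 0.130 of assigned and 0.374 of CD3-positive cells, and G over both treatments 0.102 and 0.354. The share of CD3-positive cells for A over both genotypes was 2.86 with no Il2ra or Ikzf2 UMI and 0.791 with no C1q UMI.

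Leaving out 1 mouse at a time, genes called ranged from 0 to 1 for A in floxed, 0 to 1 for G with anti-PD-1, 0 to 2 for G over both treatments and 0 to 1 for the interaction, each highest without floxed anti-PD-1 mouse 3. Antibodies called ranged from 0 to 4 for A in floxed, 0 to 1 for A over both genotypes, 0 to 1 for G with anti-PD-1 and 0 to 3 for the interaction. In LysM-Cre mice A ranged from -0.25 to 0.31 for CD25 and from -1.34 to 0.36 for CD103. The share of assigned cells ranged from -0.393 to 0.371 for A in floxed, -0.900 to 0.0281 for A in LysM-Cre, -0.345 to 0.293 for G with isotype, -0.977 to 0.0415 for G with anti-PD-1 and -0.364 to 0.0336 for A over both genotypes. The share of CD3-positive cells ranged from 5.85 to 9.99 for A in floxed, -1.87 to 0.820 for G with isotype, -7.73 to -3.59 for G with anti-PD-1 and 3.84 to 5.79 for A over both genotypes (exact permutation p = 0.0518 without floxed anti-PD-1 mouse 2). The Foxp3-positive share ranged from -2.07 to 4.71 for A in LysM-Cre and from -2.25 to 4.90 for G with isotype. No paired analysis was possible between conditions because the labels give the mice no shared replicate numbers. The mouse numbers used here are names that follow hashtag order, and the pool was a term in the fits.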
